A study of Homo sapiens with 6 samples.

Results

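The 37 genes described here carry glucose into the cell, convert it to pyruvate, turn pyruvate into lactate, move lactate across the plasma membrane and admit pyruvate to the mitochondrion. They were listed by name as pathway genes and not by a cutoff on their values, but with earlier results of these data known. The study also reports glycolysis among the top gene sets in these libraries, so the choice of pathway is not independent of the data. They make up 37 of the 58288 gene identifiers in the deposited count table, and all 37 were among the 14415 genes that passed the filter on low counts. The question put to them was which steps of the pathway changed in mRNA level when T24 cells were transfected with either of a pair of siRNAs against the circular RNA circ235.

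T24 is an established human bladder cancer cell line. The cells received a control siRNA (NC, labelled siControl), si-circ235-1 (siRNA1) or si-circ235-2 (siRNA2), with 2 libraries per condition that the study describes as biological replicates. Both siRNAs were directed at the looping site of circ235 and delivered by transient transfection, and all 3 conditions used the same line. The study reports a higher knockdown efficiency by qRT-PCR for siRNA1, which it then used in its follow-up experiments. Polyadenylated RNA was sequenced without strand information, so circ235, which has no poly(A) tail, has no value in the table and its knockdown cannot be read from these libraries. The p-values below measure the spread between these libraries, and in such bulk samples fewer cells with a transcript and less of it per cell cannot be told apart.

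Glycolysis splits glucose into pyruvate in the cytosol. Hexokinase traps glucose as glucose-6-phosphate, phosphofructokinase commits the sugar to breakdown, and the PFKFB enzymes and TIGAR set the level of fructose-2,6-bisphosphate, the activator of phosphofructokinase. Many tumour cells reduce pyruvate to lactate even when oxygen is present, export it with protons through the monocarboxylate transporters MCT1 and MCT4, and restrain pyruvate oxidation through the pyruvate dehydrogenase kinases. MCT4, encoded by SLC16A3, is the transporter that the study selected for follow-up after seeing these libraries, so its values here are not independent evidence of its direction.

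The libraries held 15373992 to 19912893 counts. Epithelial keratins KRT7, KRT8 and KRT18 and the adhesion receptor CD44 had 8507 to 41324 counts in every library, while KRT19 had at most 1 count and CDH1 at most 6. The urothelial differentiation gene UPK3A was at 0 counts throughout and UPK1B, UPK2 and GATA3 had at most 20 counts. PPARG of the same list had 353 and 370 counts in NC, 565 and 823 under si-circ235-1 and 834 and 1069 under si-circ235-2, so the list of 5 summed to 372 and 388, 578 and 866, and 853 and 1089. Of 9 markers of blood, endothelial, liver and connective tissue cells, PTPRC, CD3E, ALB and COL3A1 were among those at 0 in all 6 libraries, and the 9 together gave 49 and 49 counts in NC, 163 and 184 under si-circ235-1 and 39 and 47 under si-circ235-2. The rise was CD14, with 157 and 178 counts under si-circ235-1 against 43 and 47 in NC. The part of CD14 and PPARG in the results was not tested.

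Under si-circ235-1, 2 of the 37 genes rose, PDK3 and TIGAR, and 0 fell by edgeR's quasi-likelihood test at an adjusted p under 0.05. Unadjusted p-values under 0.05 numbered 2 in each direction, and DESeq2 also called 2 genes higher and 0 lower. Over all genes tested, 2.24% were called higher, 3.64% lower and 5.88% in either direction, so the 5.41% of pathway genes called was close to that background. Under si-circ235-2, 3 genes rose, PFKFB3, PFKFB2 and HK2, and 8 fell, ALDOA, TPI1, ENO1, PFKL, LDHB, SLC16A3, BSG and MPC2. These 11 genes are 29.7% of the 37, beside 31.4% of all genes tested, 15.7% called higher and 15.7% called lower. The share of pathway genes that changed was thus near the share of all genes, with 8.11% higher and 21.6% lower.

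The siRNAs were also compared directly. Between them, 4 genes were higher under si-circ235-2, PFKFB3, PFKFB2, PDK2 and SLC16A1, and 8 were lower, PFKL, ALDOA, TPI1, ENO1, LDHB, SLC16A3, PDK3 and MPC2. These 12 genes are 32.4% of the 37, against 39.7% of all genes tested, 21.1% higher and 18.6% lower. The median log2 fold change of the 37 genes was 0.04 for si-circ235-1 against NC, -0.07 for si-circ235-2 against NC and -0.17 between the siRNAs, beside -0.03, -0.00 and 0.04 over all genes. The 2 comparisons with NC share the NC libraries.

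**Figure D1:**
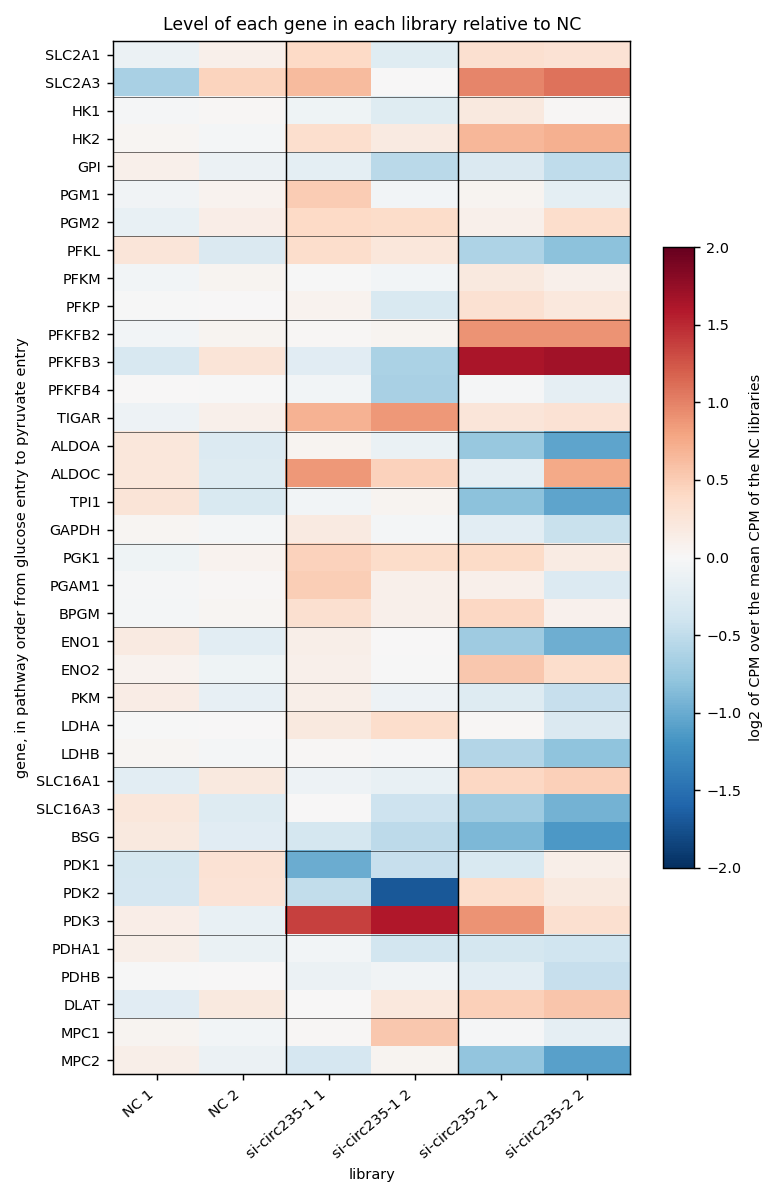
Heat map of the 37 genes (rows, in pathway order) in the 6 libraries (columns). Colour gives log2 of the CPM, the count scaled to library size, over the mean CPM of the NC libraries, red for higher and blue for lower. PFKFB3, PFKFB2 and HK2 are red in both si-circ235-2 libraries, PDK3 and TIGAR are red in both si-circ235-1 libraries, and ALDOA, TPI1, ENO1, SLC16A3, BSG and MPC2 are blue in both si-circ235-2 libraries.

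**Figure D2:**
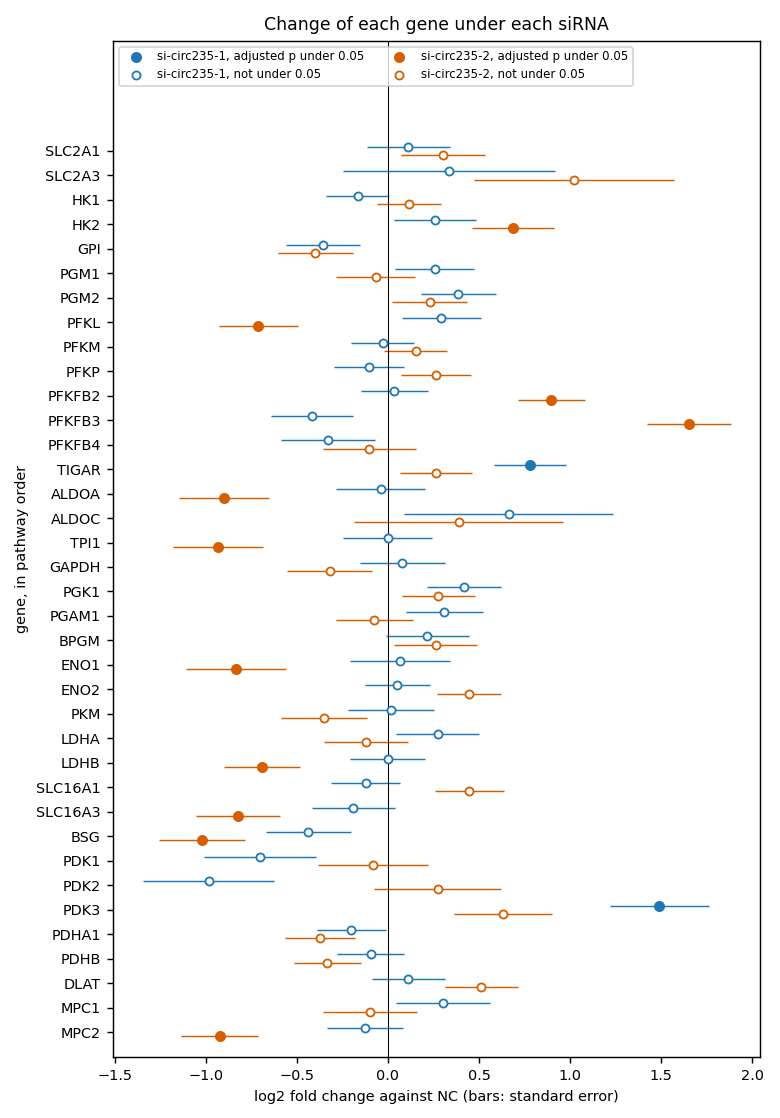
Log2 fold change against NC for each gene, with bars of 1 standard error, for si-circ235-1 (blue) and si-circ235-2 (orange). Filled points passed an adjusted p under 0.05, which 2 genes did under si-circ235-1 and 11 under si-circ235-2.

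At the entry of glucose, no call was made on the transporters. SLC2A1 (GLUT1), the widespread facilitative transporter, was at 41.2 and 47.7 CPM (counts scaled to the size of the library after TMM normalization) in NC, 58.8 and 37.4 under si-circ235-1 and 55.5 and 54.2 under si-circ235-2. SLC2A1 had a log2 fold change of 0.11 (SE 0.23, adjusted p = 0.806) for si-circ235-1 and 0.30 (SE 0.23, adjusted p = 0.342) for si-circ235-2, with 0.19 (SE 0.23, adjusted p = 0.538) between the siRNAs, and the si-circ235-1 libraries lay on both sides of NC. SLC2A3 (GLUT3), the high-affinity neuronal transporter, was at 0.459 to 1.53 CPM in all libraries. On the TPM scale, which divides each count by the exon length of its gene before scaling to the library, SLC2A1 held 97.9% to 99.2% of the sum of both.

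Hexokinase 2, the inducible isozyme that many tumours use, rose under si-circ235-2. HK2 (ENSG00000159399.9, chr2:74833981-74893359, plus strand) was at 11.4 and 10.8 CPM in NC, 14.0 and 12.6 under si-circ235-1 and 17.5 and 18.2 under si-circ235-2. Every siRNA library was above both NC libraries, and the si-circ235-2 pair was highest. HK2 changed by a log2 fold change of 0.69 (SE 0.22, adjusted p = 0.0385) for si-circ235-2 and 0.26 (SE 0.23, adjusted p = 0.516) for si-circ235-1, and the direct difference of 0.43 (SE 0.22) had an adjusted p of 0.149. The HK2 call held in 3 of 12 alternative fits and was lost on leaving out any 1 of the 6 libraries, at adjusted p-values of 0.0523 to 0.16. In a detrended fit, in which the smooth dependence of each library on the length and GC of transcripts was taken out, its size was 0.16. The constitutive isozyme HK1 stayed between 98.0 and 133 CPM, and HK2 made up 8.65% to 9.36% of the summed HK1 and HK2 TPM in NC, 11.7% in both si-circ235-1 libraries and 12.0% and 13.7% under si-circ235-2. GPI, which converts glucose-6-phosphate to fructose-6-phosphate, was at 455 and 390 CPM in NC and 291 to 369 CPM in the other 4 libraries, without a call.

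The largest change in the pathway was in the control of fructose-2,6-bisphosphate. PFKFB3 (ENSG00000170525.19, chr10:6144934-6254644, plus strand), whose kinase activity far exceeds its phosphatase activity, was at 46.6 and 69.4 CPM in NC, 49.6 and 37.5 under si-circ235-1 and 179 and 186 under si-circ235-2. Both si-circ235-2 libraries were far above the other 4. Under si-circ235-2 it rose by a log2 fold change of 1.65 (SE 0.23, adjusted p = 0.00187) against NC and 2.07 (SE 0.23, adjusted p = 0.00045) against si-circ235-1, and PFKFB3 was called in all 12 alternative fits of each comparison. For si-circ235-1 the value was in the other direction, -0.42 (SE 0.23, adjusted p = 0.282). Its size depended on the NC libraries, at -0.68 without NC replicate 1 and -0.06 without NC replicate 2. In the detrended fit PFKFB3 was at 1.45 (adjusted p = 0.00334) against NC and 1.63 (adjusted p = 0.00064) against si-circ235-1.

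PFKFB2, the heart-type kinase and phosphatase, also rose under si-circ235-2. PFKFB2 (ENSG00000123836.14, chr1:207034366-207081024, plus strand) was at 29.5 and 32.0 CPM in NC, 31.1 and 31.9 under si-circ235-1 and 57.3 and 57.0 under si-circ235-2, so the NC and si-circ235-1 libraries lay together and the si-circ235-2 libraries stood above them. The log2 fold change was 0.90 (SE 0.18, adjusted p = 0.00582) against NC and 0.86 (SE 0.18, adjusted p = 0.0045) against si-circ235-1, and si-circ235-1 gave 0.04 (SE 0.18, adjusted p = 0.933). Neither call passed in the detrended fit, at 0.26 (adjusted p = 0.21) against NC and 0.31 (adjusted p = 0.114) against si-circ235-1, and the call against NC was also lost without NC replicate 1, at 0.83 (adjusted p = 0.0665). PFKFB4 was at 9.38 to 14.7 CPM and was not called. PFKFB3 held 59.0% and 67.2% of the summed PFKFB TPM in NC, 60.3% and 56.8% under si-circ235-1 and 78.6% and 79.8% under si-circ235-2.

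TIGAR, a phosphatase that lowers fructose-2,6-bisphosphate, rose under si-circ235-1. TIGAR (ENSG00000078237.6, chr12:4307763-4354593, plus strand) was at 23.0 and 26.5 CPM in NC, 40.1 and 44.9 under si-circ235-1 and 29.1 and 30.3 under si-circ235-2. The si-circ235-1 libraries were highest and no group overlapped another. TIGAR changed by a log2 fold change of 0.78 (SE 0.20, adjusted p = 0.0458) for si-circ235-1 and 0.26 (SE 0.20, adjusted p = 0.337) for si-circ235-2, while the difference between the siRNAs, -0.52 (SE 0.20), had an adjusted p of 0.0577. In the detrended fit the si-circ235-2 value was -0.10 and the difference between the siRNAs -0.88 (adjusted p = 0.00177). With the replicate number as a block, the difference between the siRNAs was -0.51 (adjusted p = 0.0399). The TIGAR call lay close to the threshold and was lost without NC replicate 1 (adjusted p = 0.192), NC replicate 2 (0.11) or either si-circ235-1 library (0.085 for replicate 1 and 0.26 for replicate 2), and without TMM scaling (0.104).

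**Figure D3:**
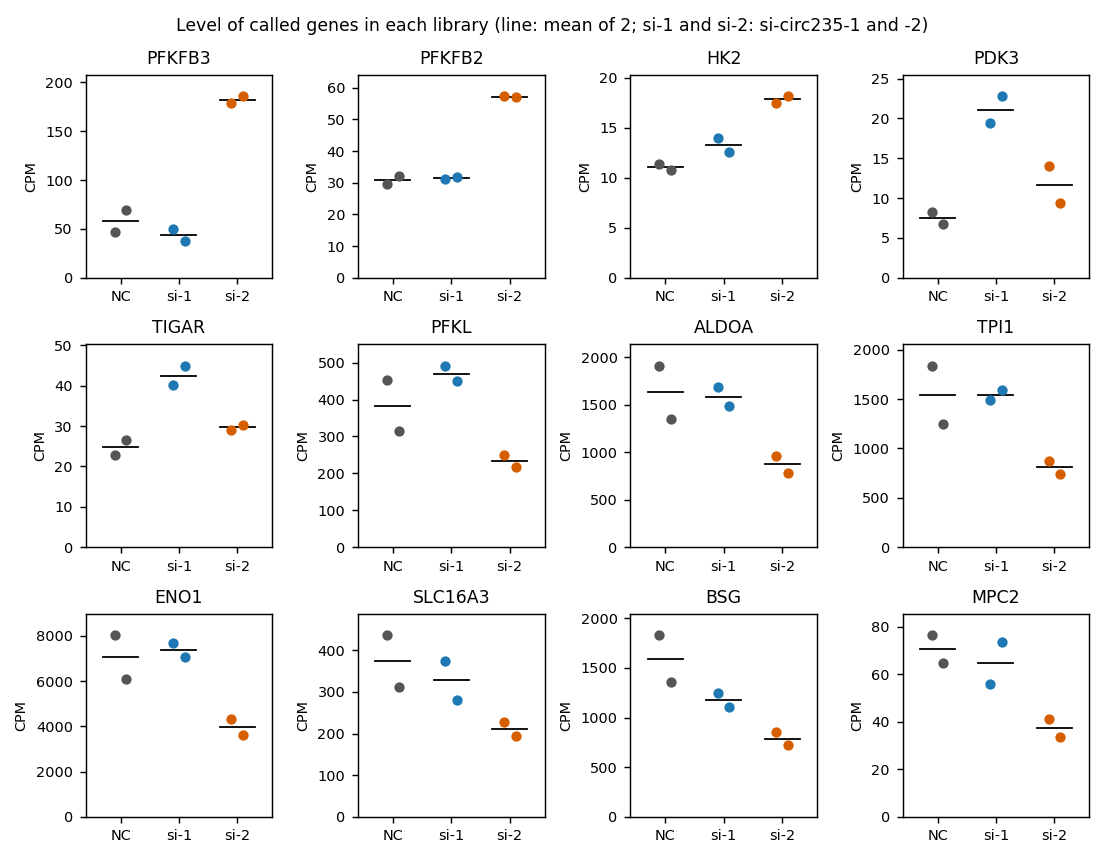
CPM after TMM scaling of 12 called genes in each library, with NC in grey, si-circ235-1 (si-1) in blue and si-circ235-2 (si-2) in orange, points for libraries and a line at the mean of 2. The si-circ235-2 points of PFKFB3, at 179 and 186 CPM, stand above all others, and in PFKL, ALDOA, TPI1, ENO1, SLC16A3, BSG and MPC2 they lie below every other point.

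Phosphofructokinase itself differed between isozymes. The liver-type gene PFKL (ENSG00000141959.16, chr21:44300051-44327376, plus strand) was at 452 and 315 CPM in NC, 491 and 449 under si-circ235-1 and 251 and 218 under si-circ235-2. It was lowest in both si-circ235-2 libraries, but the NC libraries differed from each other by a ratio of 1.44. On the log2 scale PFKL changed by -0.71 (SE 0.22, adjusted p = 0.0306) for si-circ235-2 against NC and -1.005 (SE 0.22, adjusted p = 0.00504) against si-circ235-1, and the second of these held in all 12 alternative fits. For si-circ235-1 the value was 0.29 (SE 0.22, adjusted p = 0.438). The call against NC held in 7 of 12 and was lost without NC replicate 1 (-0.43), si-circ235-1 replicate 1 (-0.72) or si-circ235-2 replicate 2 (-0.62), without TMM factors (-0.44, adjusted p = 0.0852) and, at -0.71, in the fit of 2 conditions alone. In the detrended fit both passed, at -0.62 (adjusted p = 0.0172) and -1.21 (adjusted p = 0.000742).

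The platelet-type PFKP, at 213 to 326 CPM, and the muscle-type PFKM, at 72.3 to 86.2 CPM, were not called. As a share of the summed TPM of the PFK genes, PFKL was 44.2% and 35.1% in NC, 45.0% and 48.3% under si-circ235-1 and 26.2% and 24.8% under si-circ235-2. PFKP rose in share accordingly, from 47.1% and 54.3% in NC to 62.8% and 63.9% under si-circ235-2. These shares are descriptions, since each gene's share depends on the others.

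From aldolase to enolase, ALDOA, TPI1 and ENO1 fell under si-circ235-2. Aldolase A (ALDOA, ENSG00000149925.17, chr16:30064164-30070457, plus strand), which splits fructose-1,6-bisphosphate, was at 1908 and 1353 CPM in NC, 1690 and 1481 under si-circ235-1 and 962 and 786 under si-circ235-2. Triose phosphate isomerase (TPI1, ENSG00000111669.14, chr12:6867119-6870948, plus strand), which interconverts the products of that split, was at 1836 and 1251 CPM in NC, 1486 and 1596 under si-circ235-1 and 874 and 746 under si-circ235-2. Enolase 1 (ENO1, ENSG00000074800.13, chr1:8861000-8879250, minus strand), the most abundant of the 37 in CPM, was at 8026 and 6091 CPM in NC, 7695 and 7088 under si-circ235-1 and 4316 and 3596 under si-circ235-2. In each of these genes the si-circ235-1 libraries lay within the range of NC, and the si-circ235-2 libraries lay below all others.

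Under si-circ235-2 the log2 fold changes were -0.90 (SE 0.25, adjusted p = 0.0198) for ALDOA, -0.93 (SE 0.25, adjusted p = 0.017) for TPI1 and -0.84 (SE 0.27, adjusted p = 0.0394) for ENO1. Against si-circ235-1 the values were -0.86 (SE 0.25, adjusted p = 0.0185), -0.93 (SE 0.25, adjusted p = 0.0129) and -0.90 (SE 0.27, adjusted p = 0.0236), each called in 9 of 12 alternative fits and lost without either si-circ235-1 library or si-circ235-2 replicate 2. The si-circ235-1 values were -0.04 (SE 0.25, adjusted p = 0.943), -0.00 (SE 0.24, adjusted p = 0.997) and 0.07 (SE 0.27, adjusted p = 0.91). In the detrended fit, ALDOA (-0.77) and ENO1 (-0.78) were also called against NC and TPI1 (-0.47, adjusted p = 0.0633) was not. Without NC replicate 1 the values were -0.64, -0.63 and -0.63, at adjusted p-values of 0.182, 0.168 and 0.28, and without si-circ235-2 replicate 2 none of the 3 was called. ENO1 held its call against NC in 6 of 12 alternative fits, ALDOA in 10 and TPI1 in 9.

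The remaining enzymes of this stretch were not called. Glyceraldehyde-3-phosphate dehydrogenase (GAPDH), often used as a reference gene, was at 2729 and 2593 CPM in NC, 3028 and 2597 under si-circ235-1 and 2298 and 1964 under si-circ235-2. Phosphoglycerate kinase PGK1 was at 527 and 588 CPM in NC and 622 to 765 CPM in the other 4 libraries, all above NC. Phosphoglycerate mutase PGAM1 was at 247 to 418 CPM, the bisphosphoglycerate mutase BPGM at 16.9 to 23.1 CPM, and the neuronal enolase ENO2 at 95.7 and 85.7 CPM in NC, 97.4 and 90.6 under si-circ235-1 and 132 and 115 under si-circ235-2. ALDOC, the brain aldolase, was at 0.611 to 1.33 CPM.

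At the end of glycolysis, pyruvate kinase and lactate dehydrogenase A gave no call. PKM was at 2267 and 1836 CPM in NC, 2232 and 1922 under si-circ235-1 and 1723 and 1498 under si-circ235-2, and counts per gene do not separate its M1 and M2 splice forms. LDHA (ENSG00000134333.13, chr11:18394388-18408425, plus strand), whose subunit favours lactate formation, was at 1770 and 1791 CPM in NC, 2038 and 2264 under si-circ235-1 and 1818 and 1455 under si-circ235-2. The log2 fold change was 0.27 (SE 0.23, adjusted p = 0.502) for si-circ235-1 and -0.12 (SE 0.23, adjusted p = 0.722) for si-circ235-2, and the si-circ235-2 libraries lay on both sides of NC. The siRNAs differed by -0.39 (SE 0.23, adjusted p = 0.195), a difference that passed in the detrended fit (-0.44, adjusted p = 0.0483).

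The partner subunit LDHB fell under si-circ235-2. LDHB (ENSG00000111716.12, chr12:21635342-21757857, minus strand), whose subunit favours lactate use, was at 1138 and 1068 CPM in NC, 1121 and 1083 under si-circ235-1 and 736 and 633 under si-circ235-2. The NC and si-circ235-1 libraries lay together and the si-circ235-2 libraries below them, with a log2 fold change of -0.69 (SE 0.21, adjusted p = 0.0284) against NC and -0.69 (SE 0.21, adjusted p = 0.0229) against si-circ235-1, and si-circ235-1 gave -0.00 (SE 0.21, adjusted p = 0.997). Without TMM factors neither call held, at -0.43 (adjusted p = 0.0761) and -0.36 (adjusted p = 0.118), and in the detrended fit both did, at -0.64 (adjusted p = 0.011) and -0.59 (adjusted p = 0.00822). Unlike the other genes that fell, LDHB differed little between the NC libraries, by a ratio of 1.06, yet its call against NC was also lost on leaving out any 1 library, at adjusted p-values of 0.0512 to 0.169. LDHA made up 42.8% and 44.6% of the summed LDHA and LDHB TPM in NC, 46.6% and 50.1% under si-circ235-1 and 54.3% and 52.5% under si-circ235-2.

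Lactate transport fell under si-circ235-2 in MCT4 and in its chaperone. SLC16A3 (ENSG00000141526.16, chr17:82228397-82261129, plus strand), the low-affinity lactate exporter MCT4, was at 436 and 311 CPM in NC, 375 and 280 under si-circ235-1 and 229 and 194 under si-circ235-2. Under si-circ235-1, 1 library lay within the NC range and 1 below it, and both si-circ235-2 libraries were below the other 4. The opposite-strand gene CSNK1D covers 5.36% of the exon bases of SLC16A3. It had 2331 and 2325 counts in NC, 1974 and 2209 under si-circ235-1 and 1671 and 1835 under si-circ235-2. The log2 fold change of SLC16A3 was -0.19 (SE 0.23, adjusted p = 0.656) for si-circ235-1 and -0.82 (SE 0.23, adjusted p = 0.0216) for si-circ235-2, and the siRNAs differed by -0.63 (SE 0.23, adjusted p = 0.0491). That difference was called in 7 of 12 alternative fits, and was lost without TMM factors (-0.30, adjusted p = 0.246) and without any 1 of the 4 siRNA libraries, at -0.41 (without si-circ235-1 replicate 1, adjusted p = 0.284) to -0.83 (without si-circ235-1 replicate 2, adjusted p = 0.0623).

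The sign under si-circ235-1 depended on the libraries and the fit, at 0.07 when NC replicate 1 was left out, 0.01 when the second si-circ235-1 library was, and 0.12 in the detrended fit. Under si-circ235-2 the SLC16A3 value stayed negative in all 12 alternative fits and was called in 9, including the detrended one (-0.72, adjusted p = 0.0106). It was not called without NC replicate 1 (-0.56, adjusted p = 0.192), without si-circ235-2 replicate 2 (-0.71, adjusted p = 0.098) or without TMM scaling (-0.55, adjusted p = 0.0571). The SLC16A3 call against NC thus came from the siRNA with the lower reported knockdown efficiency.

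Basigin (BSG, ENSG00000172270.18, chr19:571277-583493, plus strand), the glycoprotein that carries MCT1 and MCT4 to the plasma membrane, was at 1828 and 1358 CPM in NC, 1245 and 1107 under si-circ235-1 and 852 and 720 under si-circ235-2. All 4 siRNA libraries were below both NC libraries. BSG changed by a log2 fold change of -1.02 (SE 0.24, adjusted p = 0.00935) for si-circ235-2, -0.44 (SE 0.23, adjusted p = 0.273) for si-circ235-1 and -0.58 (SE 0.23, adjusted p = 0.0701) between the siRNAs. That last difference passed by DESeq2 (-0.61, adjusted p = 0.0185) and in the fit of those 2 conditions alone (-0.56, adjusted p = 0.0332). The BSG call was lost only without NC replicate 1 (-0.80, adjusted p = 0.0967) among the 12 alternatives, and its size was -0.43 (adjusted p = 0.0454) in the detrended fit.

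MCT1 was not called against NC and differed between the siRNAs. SLC16A1 (ENSG00000155380.11, chr1:112911847-112957013, minus strand), the high-affinity transporter, was at 91.2 and 121 CPM in NC, 99.2 and 95.8 under si-circ235-1 and 141 and 148 under si-circ235-2. The log2 fold change was -0.12 (SE 0.19, adjusted p = 0.738) for si-circ235-1 and 0.45 (SE 0.19, adjusted p = 0.0945) for si-circ235-2, and SLC16A1 was higher under si-circ235-2 than under si-circ235-1 by 0.57 (SE 0.19, adjusted p = 0.0342). Against NC the si-circ235-2 value was 0.00 in the detrended fit (adjusted p = 0.996). The call between the siRNAs was lost in that fit (0.14, adjusted p = 0.39) and without any 1 of the 4 siRNA libraries, at adjusted p-values of 0.0865 to 0.153. SLC16A3 was 73.8% and 60.4% of the summed TPM of MCT1 and MCT4 in NC, 69.1% and 63.3% under si-circ235-1 and 49.0% and 43.6% under si-circ235-2.

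**Figure D4:**
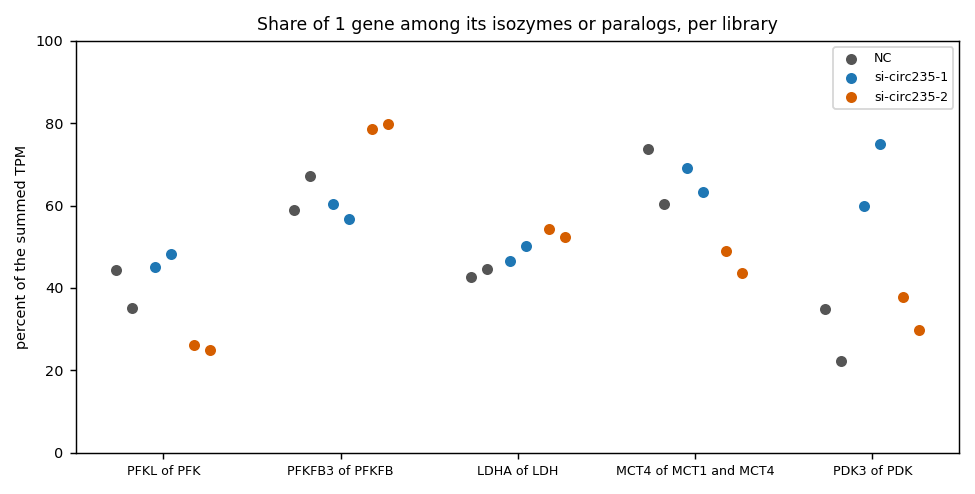
Share of 1 gene in the summed TPM of its isozymes or paralogs, in percent, for each library of NC (grey), si-circ235-1 (blue) and si-circ235-2 (orange). Under si-circ235-2 the shares of PFKL (26.2% and 24.8%) and of MCT4, SLC16A3 (49.0% and 43.6%), lie below those of the other libraries, and the PFKFB3 share (78.6% and 79.8%) lies above. Under si-circ235-1 the PDK3 share (59.9% and 75.0%) is highest.

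The study follows lactate transport through the microRNA miR-330-5p, which it describes as bound by circ235. Its evidence on MCT4 includes a predicted site and a reporter carrying the MCT4 3' UTR. Mimics of miR-330-5p lowered that reporter, and a mutant mimic did so less. Western blots of MCT4 protein are also reported, after circ235 knockdown or overexpression and with a miR-330 inhibitor and mimic. Those assays measure reporters and protein, not the mRNA counted here. The study also measured mRNA by qRT-PCR. It took forward genes that fell in common after circ235 interference, and MCT4 was among those with a predicted site. In tumour samples it reports a positive correlation of MCT4 with circ235. Those qRT-PCR values were not compared with the counts here. Pairing outside the seed, bases 2 to 8 of the microRNA, was not searched here. The mature sequence of miR-330-5p (RefSeq, GRCh38, chr19:45639049-45639070, minus strand) is shown with the seed, which the search below used, in capitals.
hsa-miR-330-5p: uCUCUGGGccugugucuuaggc

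A match to the seed is CCCAGAG in the 3' UTR, searched on the transcript strand in the longest 3' UTR of each gene. It was present in 9 of the 37 genes, GPI, PDK1, PDK2, PDK3, PFKFB4, PGAM1, PGK1, PKM and SLC2A1, which is 24.3% beside 20.5% of 12146 genes tested with a 3' UTR. None of the 8 genes that fell under si-circ235-2 was among the 9, nor were PFKFB3, PFKFB2 and HK2, which rose under it. Of the genes that rose under si-circ235-1, PDK3 was among them and TIGAR was not. Beside a background of 20.5%, so few genes give no reading of the match in either direction. The shorter match to bases 2 to 7, CCAGAG, was found in 17 of the 37 (45.9%, beside 43.6%), and among the genes that fell only SLC16A3 and BSG had it, at 1 place each.

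The sites in the lactate transport genes and in PDK3 are shown on the transcript strand with the match in capitals, at chr17:82239143-82239165, chr19:582544-582566, chr1:112912116-112912138 and chrX:24539627-24539649 in that order (GRCh38, 3' UTR exons of GENCODE release 29). A match is a description of the sequence and not a measured binding site.
SLC16A3: gggaaccgtgtcattCCAGAGtg
BSG: aggcaagaacgtccgCCAGAGga
SLC16A1: ttgaactgagagcatCCAGAGca
PDK3: cctgatgatttagtCCCAGAGcc

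The glycogen branch was not called. The phosphoglucomutase PGM1, which links glucose-6-phosphate to glycogen, was at 53.0 to 86.8 CPM. PGM2, a phosphopentomutase grouped here with PGM1, was at 24.9 to 36.7 CPM, with both si-circ235-1 libraries above both NC libraries.

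At the entry of pyruvate into the mitochondrion, PDK3, a kinase that inactivates pyruvate dehydrogenase, rose under si-circ235-1. PDK3 (ENSG00000067992.12, chrX:24465221-24541862, plus strand) was at 8.27 and 6.78 CPM in NC, 19.4 and 22.8 under si-circ235-1 and 14.0 and 9.37 under si-circ235-2. Both si-circ235-1 libraries were above all others, and both si-circ235-2 libraries were above NC. PDK3 changed by a log2 fold change of 1.49 (SE 0.27, adjusted p = 0.0156) for si-circ235-1 and 0.63 (SE 0.27, adjusted p = 0.0984) for si-circ235-2, and the siRNAs differed by -0.86 (SE 0.26, adjusted p = 0.0248). In the detrended fit these were 1.44 (adjusted p = 0.0123), 0.14 (adjusted p = 0.745) and -1.30 (adjusted p = 0.0044). Without NC replicate 1, NC replicate 2 or si-circ235-1 replicate 2, the PDK3 value against NC was 1.64, 1.39 and 1.37 and no longer passed, at adjusted p-values of 0.0702, 0.0913 and 0.17. The si-circ235-2 value passed without TMM factors (0.89, adjusted p = 0.0301) and without si-circ235-2 replicate 2 (0.89, adjusted p = 0.0311), and in those same settings the difference between the siRNAs, -0.53 (adjusted p = 0.129) and -0.59 (adjusted p = 0.138), did not.

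PDK1, a kinase induced in hypoxia, was at 8.92 and 13.9 CPM in NC, 5.74 and 8.26 under si-circ235-1 and 9.26 and 12.3 under si-circ235-2. PDK1 gave a log2 fold change of -0.70 (SE 0.31, adjusted p = 0.185) for si-circ235-1, whose libraries were both below NC, and -0.08 (SE 0.30, adjusted p = 0.863) for si-circ235-2, whose libraries lay within the NC range. The siRNAs differed by 0.62 (SE 0.31, adjusted p = 0.13), which passed without TMM factors (0.97, adjusted p = 0.0459). PDK2 was at 13.8 and 21.0 CPM in NC, 12.3 and 5.36 under si-circ235-1 and 22.1 and 19.9 under si-circ235-2. Against NC it had -0.98 (SE 0.36, adjusted p = 0.121) for si-circ235-1 and 0.27 (SE 0.35, adjusted p = 0.586) for si-circ235-2. It was higher under si-circ235-2 than under si-circ235-1 by 1.26 (SE 0.36, adjusted p = 0.0182), a call lost without si-circ235-1 replicate 2 (0.76, adjusted p = 0.137). Reads of PDK2 cannot be told from those of SAMD14 on the opposite strand, which covers 38.6% of its exon bases and had 17 to 59 counts. PDK3 made up 34.9% and 22.3% of the summed TPM of the 3 kinases in NC, 59.9% and 75.0% under si-circ235-1 and 37.8% and 29.8% under si-circ235-2.

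The pyruvate carrier fell in 1 of its subunits. MPC2 (ENSG00000143158.10, chr1:167916729-167937040, minus strand), a subunit of the mitochondrial pyruvate carrier, was at 76.4 and 64.7 CPM in NC, 55.9 and 73.5 under si-circ235-1 and 41.0 and 33.4 under si-circ235-2. Of the si-circ235-1 libraries 1 lay within the NC range and 1 below it, and both si-circ235-2 libraries were lower still. The log2 fold change was -0.92 (SE 0.21, adjusted p = 0.00884) against NC and -0.80 (SE 0.21, adjusted p = 0.0123) against si-circ235-1, and the first of these was lost among 12 alternatives only without NC replicate 1 (-0.81, adjusted p = 0.0843). The second was lost without TMM factors (-0.47, adjusted p = 0.0893), si-circ235-1 replicate 2 (-0.59) or si-circ235-2 replicate 2 (-0.66). For si-circ235-1 MPC2 had -0.12 (SE 0.21, adjusted p = 0.757), and in the detrended fit the si-circ235-2 values were -0.83 (adjusted p = 0.0113) and -0.63 (adjusted p = 0.0186). The opposite-strand gene DCAF6 covers 22.5% of the exon bases of MPC2 and its counts were highest under si-circ235-2. The partner subunit MPC1, at 9.32 to 15.4 CPM, was not called.

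The pyruvate dehydrogenase subunits were not called. PDHA1 was at 86.7 and 72.6 CPM in NC and 60.8 to 77.02 CPM elsewhere, PDHB was at 56.2 and 57.0 CPM in NC and 41.0 to 53.6 CPM elsewhere, and DLAT, which carries the lipoyl groups, was at 44.0 and 59.0 CPM in NC, 52.0 and 59.3 under si-circ235-1 and 71.3 and 75.6 under si-circ235-2.

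Summed over each step, the level under si-circ235-2 depended on the scale used. On the TPM scale, which divides by exon length, all 37 genes together were at 0.962 of the NC mean under si-circ235-1 and 0.940 under si-circ235-2. On the TMM-scaled CPM scale, with no division by length, the same ratios were 1.03 and 0.693. TPM does not use the TMM factors, so the scales also differ in how whole libraries are scaled. In the single-gene steps, hexose phosphate and pyruvate kinase, the gene's length cancels in the ratio. Their difference between the scales is that library scaling. No test was run on these sums.

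Under si-circ235-2, the step of fructose bisphosphate control was at 2.91 of NC in TPM and 2.21 in CPM. Glucose entry (1.69 and 1.25), hexokinase (1.55 and 1.13), the phosphoglycerate step (1.46 and 1.122), the pyruvate dehydrogenase kinases (1.71 and 1.20) and the glycogen branch (1.40 and 1.02) were also above NC on both scales. Aldolase was at 0.746 and 0.536, enolase at 0.794 and 0.571, the triose phosphate step at 0.957 and 0.699, lactate transport at 0.744 and 0.551 and the pyruvate carrier at 0.837 and 0.580, below NC on both scales. Hexose phosphate (1.05 and 0.758), phosphofructokinase (1.32 and 0.877), pyruvate kinase (1.09 and 0.785), lactate dehydrogenase (1.03 and 0.805) and pyruvate dehydrogenase (1.31 and 0.958) lay above NC in TPM and below it in CPM, so no direction is given for them. Under si-circ235-1, lactate transport was at 0.717 and 0.772 of NC and the phosphoglycerate step at 1.19 and 1.30. Most of the lactate transport sum is the chaperone basigin (BSG), at 1143 of 1312.5 TPM in NC. BSG was 800 of 942 TPM under si-circ235-1 and 783 of 976 under si-circ235-2. From NC to si-circ235-2, mean SLC16A1 went from 56.1 to 103.7 TPM and SLC16A3 from 113 to 89.0. The sum therefore gives no direction for the transporters alone.

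Scaling moved the split of calls. Without TMM factors, the genes tested had a median of 0.25 on the log2 scale under si-circ235-2 against NC, in place of -0.00, and 0.37 between the siRNAs, in place of 0.04. The pathway genes called were 7 higher and 5 lower against NC, in place of 3 and 8, and 11 higher and 4 lower between the siRNAs, in place of 4 and 8. In the detrended fit they were 3 higher and 10 lower against NC and 2 higher and 16 lower between the siRNAs. Over all genes, calls without TMM factors were 3173 higher and 1294 lower against NC, and 4534 and 1496 between the siRNAs. In the detrended fit all genes gave 1613 and 2111 against NC, and 2469 and 3343 between the siRNAs. The main fit gave 2270 and 2260, and 3047 and 2678, of 14415 genes tested. No call of a pathway gene changed direction in any of the 302 refits of single calls, of which 223 kept the call.

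Transcript length moved with the response to si-circ235-2. Across 14386 genes with a length, the fold change of si-circ235-2 against NC on the log2 scale had a Spearman correlation of 0.442 with the length of the longest transcript, beside 0.041 for si-circ235-1 and -0.324 for NC replicate 1 against NC replicate 2, as a description across genes that share these libraries. In 4 equal groups of genes by length, from shortest to longest, the median under si-circ235-2 was -0.57, -0.16, 0.18 and 0.45. TPI1 (1763 nucleotides), LDHB (1538), BSG (2141), MPC2 (2177), ALDOA (2534) and ENO1 (2548) lie in the lower 2 of these groups. HK2 (5772) and PFKFB2 (7094) lie in the highest, while PFKL (6007) and SLC16A3 (4830) fell although their transcripts are long. The GC content of the latter pair was 64.1% and 62.7%. With GC content, the Spearman correlation was -0.217 for si-circ235-2 against NC and 0.359 for NC replicate 1 against NC replicate 2. Length was taken into account only in the detrended fit, in which 8 of the 11 genes called against NC were called, HK2, PFKFB2 and TPI1 being the exceptions.

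**Figure D5:**
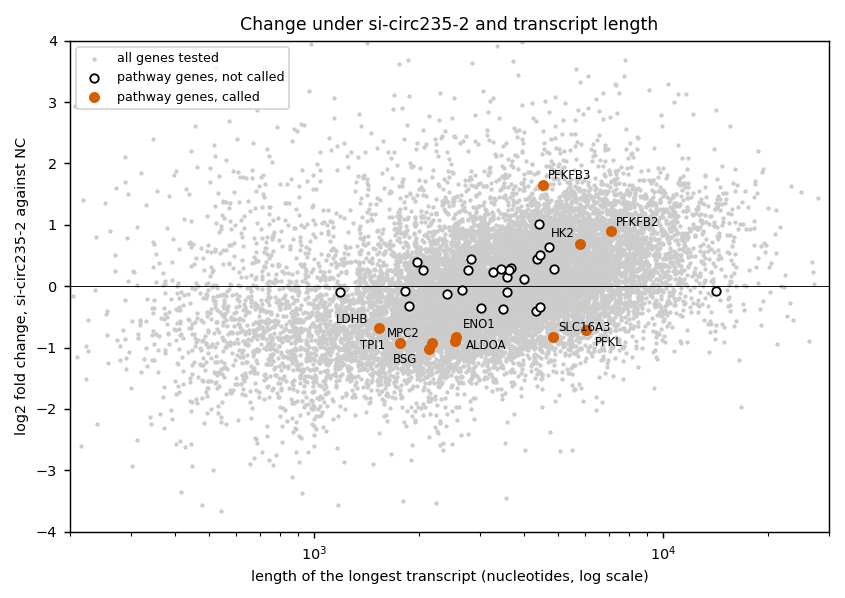
Log2 fold change of si-circ235-2 against NC (vertical axis) over the length of the longest transcript in nucleotides (horizontal log axis). Grey points are all genes tested, white circles pathway genes that were not called and orange points the 11 that were. Values rise with length across all genes, and PFKFB3 lies above, and SLC16A3 and PFKL below, genes of like length.

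Of the 6 libraries, NC replicate 1 was the one whose removal cost most of the pathway calls of si-circ235-2 against NC. All 8 genes that fell under si-circ235-2 were higher in NC replicate 1 than in NC replicate 2, by ratios of 1.06 (LDHB) to 1.47 (TPI1), while both si-circ235-2 libraries were below both NC libraries in all 8. Without NC replicate 1, 1 of the 11 genes called under si-circ235-2 was called, PFKFB3, and the 8 values stayed negative, at -0.43 (PFKL) to -0.81 (MPC2). Without si-circ235-2 replicate 2, 4 of the 11 were called, and without si-circ235-1 replicate 1, 7. Between the siRNAs all 12 calls held without NC replicate 1, while leaving out si-circ235-1 replicate 2 kept 3, leaving out its replicate 1 kept 5 and leaving out si-circ235-2 replicate 2 kept 4. Over all genes, 769 were called for si-circ235-2 against NC without NC replicate 1, in place of 4530.

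Genes around the pathway were counted by edgeR at the same threshold from lists of textbook members. The counts under si-circ235-2 stand beside 15.7% of all genes called higher and 15.7% called lower. They take no account of transcript length or of how far the calls rest on NC replicate 1. In the pentose phosphate branch, 0 of 7 genes tested rose and 3 fell under si-circ235-2, among them the transaldolase TALDO1 (-1.36, adjusted p = 0.00396) and the lactonase PGLS (-1.41, adjusted p = 0.00476), as log2 fold changes. No member had an unadjusted p under 0.05 in the upward direction, and DESeq2 also called 0 higher and 3 lower. TALDO1 was at 389 and 267 CPM in NC, 460 and 608 under si-circ235-1 and 146 and 109 under si-circ235-2, so the siRNAs lay on opposite sides of NC, and they differed by -2.07 (adjusted p = 0.000563).

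Among 12 genes tested of the hexosamine, serine and glycerol branches, GFPT1, the rate-limiting enzyme of hexosamine synthesis, rose under both siRNAs. It was at 41.7 and 50.4 CPM in NC, 87.2 and 85.8 under si-circ235-1 and 83.3 and 89.5 under si-circ235-2, with log2 fold changes of 0.91 (adjusted p = 0.0205) and 0.91 (adjusted p = 0.00523). The NC libraries were below the other 4, which lay together. Under si-circ235-2, 3 genes of that list rose, GNPNAT1 of the same hexosamine route among them (1.24, adjusted p = 0.00461), and 1 fell, PHGDH, the entry enzyme of serine synthesis (-0.82, adjusted p = 0.0196).

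Among 8 other isozymes and gluconeogenic genes tested, the glucose-6-phosphatase G6PC3 fell under both siRNAs, with 106 and 67.4 CPM in NC, 43.5 and 33.4 under si-circ235-1 and 46.7 and 36.9 under si-circ235-2 (-1.17, adjusted p = 0.0267, and -1.05, adjusted p = 0.0104). HKDC1, a further hexokinase, rose under si-circ235-2 from 12.3 and 8.495 CPM in NC to 21.4 and 22.04 CPM (1.06, adjusted p = 0.0104), as HK2 did.

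Of 8 further genes tested of the pyruvate dehydrogenase system, 2 rose and 0 fell under si-circ235-2 by both edgeR and DESeq2, with 3 and 0 at an unadjusted p under 0.05. These were PDP2, the phosphatase that reactivates the complex (0.82, adjusted p = 0.00853), and PDPR, a regulatory subunit of such a phosphatase (1.08, adjusted p = 0.00456). Of 12 other glucose and monocarboxylate transporters tested, 1 rose and 1 fell under si-circ235-2, the latter SLC2A8 (-0.97, adjusted p = 0.00526), and SLC16A13 fell under si-circ235-1 (-1.58, adjusted p = 0.0156). Of the 12 glycogen genes, 3 rose and 2 fell under si-circ235-2, and of the 16 genes of the citrate cycle 2 rose and 3 fell, beside 15.7% of all genes in each direction.

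Of 12 regulators tested, 5 rose and 0 fell under si-circ235-2 by both tools, with 5 and 0 at an unadjusted p under 0.05, beside 15.7% of all genes in each direction. They include EPAS1, which encodes the hypoxia-inducible factor HIF-2alpha (1.31, adjusted p = 0.00179), the growth kinase MTOR (1.18, adjusted p = 0.0046) and VHL, which marks those factors for degradation (0.80, adjusted p = 0.0258). HIF1A was at 226 and 239 CPM in NC, 217 and 308 under si-circ235-1 and 89.7 and 212 under si-circ235-2, so 1 si-circ235-2 library was far below the other, with a log2 fold change of -0.62 (SE 0.33, adjusted p = 0.178). MYC, an activator of glycolytic genes, was at 170 and 189 CPM in NC, 124 and 104 under si-circ235-1 and 153 and 125 under si-circ235-2, all 4 below NC, with an adjusted p of 0.0665 for si-circ235-1 and 0.161 for si-circ235-2.

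Under si-circ235-1, where 2.24% of all genes were called higher and 3.64% lower, edgeR called 3 genes in these lists, GFPT1, G6PC3 and SLC16A13, and 0 in the pentose phosphate, pyruvate dehydrogenase, glycogen, citrate cycle and regulator lists. In those 5 lists, unadjusted p-values under 0.05 numbered 2, 1, 3, 1 and 0 upward and 0, 1, 0, 0 and 2 downward, and DESeq2 called 2, 1, 1, 0 and 0 higher and 0, 0, 0, 0 and 1 lower. Between the siRNAs, where 21.1% of all genes were called higher and 18.6% lower, edgeR called 0 higher and 3 lower in the pentose phosphate list (0 and 5 unadjusted, 0 and 4 by DESeq2) and 5 higher and 0 lower among the regulators (5 and 1 unadjusted, 3 and 1 by DESeq2). The other lists gave 2 and 3 for pyruvate dehydrogenase, 4 and 3 for glycogen, 4 and 4 for the citrate cycle, 1 and 3 for the hexosamine, serine and glycerol branches, 3 and 1 for transporters and 1 and 1 for isozymes and gluconeogenesis.

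Promoters of the pathway often hold the core letters of the hypoxia response element. The motif ACGTG, on either strand (CACGT on the other), was searched in RefSeq windows (GRCh38.p14) of 300 bases, 250 before to 50 after a start. It was present in 27 of 67 windows of the pathway genes (40.3%), beside 25.4% of the windows of genes tested and 21.4% of all 35116 windows, and in 23 of 34 pathway genes with a window (67.6%), beside 32.4% of 10082 genes tested, which differ in windows per gene. Of the 8 genes that fell under si-circ235-2, ENO1, LDHB, MPC2 and PFKL had none in their windows and ALDOA, BSG, SLC16A3 and TPI1 had it. The other genes without it were HK1, MPC1, PDHA1, PFKFB4, PGAM1, PKM and SLC2A1.

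Stretches of 150 bases from such windows, outside annotated exons, are shown for a pair of genes that rose under si-circ235-2, HK2 and PFKFB3, and a pair that fell, SLC16A3 and TPI1, with the motif in capitals. Where it reads CACGTG the letters match on both strands. They lie on the plus strand at chr2:74835020-74835169, chr10:6202716-6202865, chr17:82228882-82229031 and chr12:6867950-6868099 in that order, each near an annotated start and inside the span of its gene given above.
HK2: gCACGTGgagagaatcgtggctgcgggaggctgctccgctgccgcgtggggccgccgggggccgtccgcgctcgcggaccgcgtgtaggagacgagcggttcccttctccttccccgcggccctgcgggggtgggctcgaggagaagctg
PFKFB3: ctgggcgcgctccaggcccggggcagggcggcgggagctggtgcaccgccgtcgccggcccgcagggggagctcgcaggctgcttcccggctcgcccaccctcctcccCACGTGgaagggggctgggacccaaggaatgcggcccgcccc
SLC16A3: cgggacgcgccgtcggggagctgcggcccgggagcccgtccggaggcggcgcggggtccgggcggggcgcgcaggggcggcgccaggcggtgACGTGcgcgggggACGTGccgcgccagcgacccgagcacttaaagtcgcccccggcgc
TPI1: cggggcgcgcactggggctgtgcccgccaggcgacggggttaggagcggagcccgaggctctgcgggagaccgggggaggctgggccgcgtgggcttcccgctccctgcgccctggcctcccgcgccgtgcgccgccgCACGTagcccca
A match is a description of these windows and says nothing of what binds there.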

How the data were processed

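For each of the 6 libraries the authors deposited raw read counts per gene, as whole numbers. The submitters' processing notes name FastQC, cutadapt, STAR and hg38. Which counter and annotation were used is not given in the sources used here. The libraries were not stranded, so overlapping genes cannot be separated. Depth was 15373992 to 19912893 counts, and 2 libraries per condition limit the precision more than counting error does.

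Conditions came from the labels. The quasi-likelihood test of edgeR 4.0.16 (R 4.3.3) was run on TMM-normalized counts of the 14415 genes kept by filterByExpr, with 1 mean per condition and Benjamini-Hochberg adjustment over all of them at a threshold of 0.05. A gene past that threshold is referred to as called. CPM used TMM-scaled totals, and TPM used exon lengths of GENCODE release 29 (GRCh38), which holds 99.5% of the identifiers. Coordinates are from that release. The chi-square of replicate counts over its degrees of freedom was 21.7 to 33.3, so replicates differed beyond sampling noise.

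Alternatives were DESeq2 1.42.0, no TMM, no filter, fits of 2 conditions, a replicate block, a detrended fit (length and GC of transcripts, splines of 5 degrees of freedom, removed through offsets), each library left out, and a crossed block chosen after seeing the data. Full statistics are given for called pathway genes and for SLC16A3, SLC16A1, LDHA, HK2, SLC2A1 and PDK1, and up to 3 called genes per context list and comparison are named. Some genes counted in the lists are not reported here by name. HIF1A and MYC were named after their values were seen. Members and lists were chosen with earlier results of these data known. The edgeR test was tested on simulated data, with the outcome not reported here.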

Additional observations from a re-analysis of the deposited data

How the results depend on the processing

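The number of pathway genes called was 2 under si-circ235-1, 11 under si-circ235-2 and 12 between the siRNAs. Leaving out 1 library gave 0 to 3, 1 to 10 and 3 to 12, where the lone sample left in a condition is assumed to vary like the others. Without TMM factors 1 was called under si-circ235-1. With the replicate block the counts were 2, 13 and 14, beside 937, 4750 and 6043 over all genes. The labels do not tie equal replicate numbers, and the deviations of same-numbered libraries correlated at -0.117 (NC and si-circ235-1), 0.198 (NC and si-circ235-2) and 0.190 (both siRNAs). Crossing the block for si-circ235-1 against NC gave 2 pathway genes and 1073 genes in all. Of 302 refits of single calls, 79 lost the call and 0 changed direction. Directions were followed across fits for the calls and for some values without a call, not for every pathway gene. Among those followed, they changed only in values without a call. Without TMM factors LDHA was 0.13 and PDK1 0.16 under si-circ235-2. In the detrended fit SLC16A3 was 0.12 under si-circ235-1, TIGAR -0.10 under si-circ235-2, and SLC2A1 was -0.14 and HK2 -0.19 between the siRNAs. Leaving out 1 library gave -0.25 to 0.41 for SLC2A1, -0.31 to 0.13 for SLC16A1 and -0.42 to 0.072 for SLC16A3 under si-circ235-1, -0.29 to 0.030 for LDHA and -0.37 to 0.28 for PDK1 under si-circ235-2, and -0.11 to 0.55 for SLC2A1 between the siRNAs. The causes were not tested. Over all genes si-circ235-1 gave 847 calls, beside 1317 by DESeq2, 1678 with no filter, 1966 in the detrended fit, 1642 from 2 conditions alone and 0 to 1482 with 1 library left out, the 0 by edgeR without si-circ235-1 replicate 2, 74 without NC replicate 1 and 134 without NC replicate 2.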

Other observations

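Several of the 37 genes have processed pseudogenes, whose reads can be hard to place. The 62 annotated GAPDH pseudogenes together held 0.289% of the GAPDH counts, the 13 of PGAM1 held 0.607%, the 4 of TPI1 0.278% and the 6 of LDHA 0.0705%. Those of SLC2A3, a gene near the filter on low counts, held 7.41%. Same-strand readthrough genes of GENCODE release 29 cover 42.3% of the exon bases of ALDOA, 42.6% of TIGAR and 33.4% of LDHB. Their identifiers are absent from the deposited count table, so they have no value here.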
